A study of Homo sapiens with 6 samples.

Results

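The regions described here are stretches of histone H3 lysine 4 trimethylation (H3K4me3) that were listed as 1 unbroken region in control HSC3 cells and were overlapped by 2 or more separate regions after DLEU1 knockdown. They were chosen by the measured lists themselves. Control regions on chromosomes 1 to 22 and X from 1000 bp to under 3000 bp wide and overlapped by at least 2 siDLEU1 regions were taken, and 2689 of 12405 control regions of that width met this rule. This share was 21.7%, with a 95% Wilson interval of 21.0% to 22.4% that covers counting error only. A further 9511 control regions of the same width (76.7%) were overlapped by exactly 1 siDLEU1 region and served as the comparison, and 205 (1.65%) by none.

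HSC3 is an established cell line of oral squamous cell carcinoma, grown in RPMI with serum. Cells were transfected for 72 h with a control siRNA (siCONT) or with an siRNA against DLEU1, a long noncoding RNA gene on 13q14, and H3K4me3 and H3 lysine 27 acetylation (H3K27ac) were mapped by chromatin immunoprecipitation sequencing (ChIP-seq). There was 1 library for each siRNA and mark, so differences between siRNAs cannot be told apart from differences between libraries, and no test or p-value is given. Peak regions cannot show the level of DLEU1 RNA, and fewer cells with the mark cannot be told apart from less mark in each cell.

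H3K4me3 is deposited mainly by the SET1/COMPASS and MLL complexes and marks nucleosomes around active transcription start sites (TSSs), most strongly just downstream of the TSS. The nucleosomes at an active promoter or enhancer flank a short stretch that is kept open by bound transcription factors, so a histone mark usually has a dip between an upstream and a downstream shoulder. H3K27ac is written by the acetyltransferases p300 and CBP and marks active promoters and enhancers. AP-1, a dimer of FOS and JUN proteins, opens many enhancers in squamous epithelial cells.

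The sequence between the pieces is called the gap below, and where a region had more than 1 gap the widest was used. Gaps just upstream of a TSS, downstream of a TSS and away from any TSS are shown by sequence. All sequences are hg19 (GRCh37). For gaps upstream or downstream of a TSS, the middle lay outside the exons of that gene's canonical transcript. The gaps away from TSSs overlapped no exon of a canonical transcript. The following 3 gaps lay upstream of the TSS of PSMA3 at chr14:58711346-58711464 (plus strand), of PSMB6 at chr17:4699294-4699413 (plus strand) and of PAGR1 at chr16:29827308-29827421 (plus strand), written in the direction of transcription with each CpG in capitals.
PSMA3: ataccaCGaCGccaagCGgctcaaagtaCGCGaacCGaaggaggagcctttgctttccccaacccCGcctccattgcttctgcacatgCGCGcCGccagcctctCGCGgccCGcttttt
PSMB6: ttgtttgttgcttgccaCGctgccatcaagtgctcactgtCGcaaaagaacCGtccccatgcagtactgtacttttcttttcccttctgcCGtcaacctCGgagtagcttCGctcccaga
PAGR1: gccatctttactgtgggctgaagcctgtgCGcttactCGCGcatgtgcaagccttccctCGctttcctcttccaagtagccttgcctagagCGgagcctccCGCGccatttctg
PSMA3 and PSMB6 encode subunits of the proteasome, and PAGR1 a partner of the MLL3 and MLL4 complexes. The PSMA3 gap held 13 CpGs in 119 bp and the PSMB6 gap held 6 in 120 bp.

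The next gaps lay in intron 1, downstream of the TSS, in NEK8, which encodes a ciliary kinase (chr17:27056105-27056264, plus strand), and in MYO10, which encodes an unconventional myosin of filopodia (chr5:16934613-16934765, minus strand). CpGs are again in capitals.
NEK8: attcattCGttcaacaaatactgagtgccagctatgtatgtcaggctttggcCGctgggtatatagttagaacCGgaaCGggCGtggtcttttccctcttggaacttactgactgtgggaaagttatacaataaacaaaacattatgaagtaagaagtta
MYO10: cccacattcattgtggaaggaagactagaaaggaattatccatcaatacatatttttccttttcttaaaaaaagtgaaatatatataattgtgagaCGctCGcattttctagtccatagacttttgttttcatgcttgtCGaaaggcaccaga
The GC content was 40.6% in the NEK8 gap and 34.0% in the MYO10 gap, against 62.2% in the PSMA3 gap.

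The last set shows gaps away from TSSs that held the AP-1 motif TGAGTCA on either strand, in capitals. They are the 4 such gaps of at most 300 bp with the highest control fold enrichment, and were chosen after the motif share was seen. They lay at chr20:6973765-6973952, chr6:7505625-7505900, chr1:23188332-23188504 in EPHB2 and chr6:11771262-11771362 in ADTRP, all written on the plus strand.
chr20 intergenic: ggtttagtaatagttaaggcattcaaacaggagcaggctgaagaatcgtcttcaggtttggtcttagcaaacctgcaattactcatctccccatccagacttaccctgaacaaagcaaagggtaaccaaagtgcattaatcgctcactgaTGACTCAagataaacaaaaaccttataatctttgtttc
chr6 intergenic: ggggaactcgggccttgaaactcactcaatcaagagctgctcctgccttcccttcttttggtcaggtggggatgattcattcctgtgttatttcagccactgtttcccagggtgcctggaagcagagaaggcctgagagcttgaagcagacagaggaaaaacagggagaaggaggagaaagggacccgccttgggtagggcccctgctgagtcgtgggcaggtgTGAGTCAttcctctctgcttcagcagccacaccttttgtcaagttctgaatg
EPHB2 intron: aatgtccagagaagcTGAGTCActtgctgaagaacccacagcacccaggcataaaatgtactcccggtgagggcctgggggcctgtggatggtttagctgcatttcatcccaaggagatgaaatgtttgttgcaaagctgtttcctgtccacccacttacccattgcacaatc
ADTRP intron: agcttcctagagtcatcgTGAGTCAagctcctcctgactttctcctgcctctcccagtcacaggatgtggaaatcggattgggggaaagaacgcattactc
No H3K27ac region was listed at any of these 4 in either library. Control H3K4me3 in the EPHB2 region ranked at the 97.5th percentile of its list. The 2 siDLEU1 pieces there ranked at the 3.05th and 9.70th percentiles. The pieces ranked at 92.1 and 93.9 at the chr20 gap, against 98.3 in control cells. At the chr6 intergenic gap they ranked at 41.3 and 97.6 against 97.9, and in ADTRP at 97.0 and 97.7 against 97.5.

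Splitting was about as common in the opposite direction. Of 11150 siDLEU1 regions of the same width, 2687 (24.1%, 23.3% to 24.9%) were overlapped by 2 or more control regions. The share rose with width in both directions. Of control regions 1000 to 1249 bp wide 13.4% were split, and of those of 2750 bp or more 41.1%, against 14.7% and 45.6% of siDLEU1 regions. In all 8 width classes the siDLEU1 share was the higher. Width and H3K4me3 rank come from the lists that chose the members and are given as description.

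**Figure D1:**
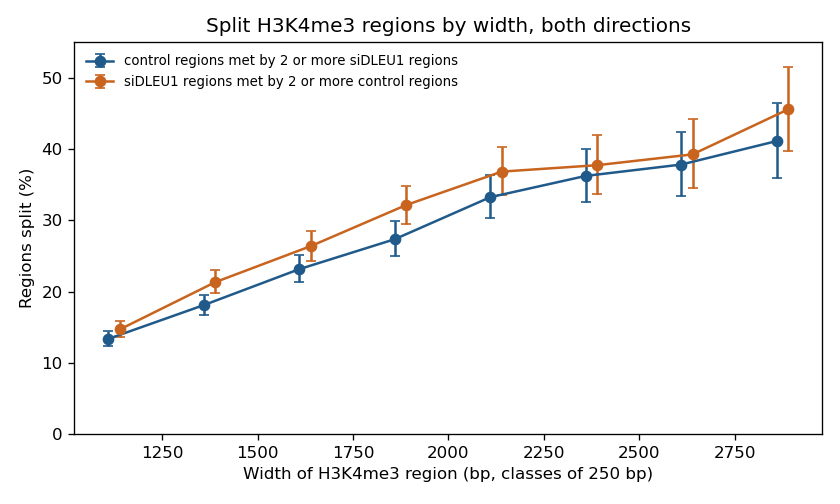
Share of H3K4me3 regions split (percent) by region width in 8 classes of 250 bp, for control regions met by 2 or more siDLEU1 regions and for siDLEU1 regions met by 2 or more control regions. Points are shares and bars are 95% Wilson intervals for counting error; both lines climb, from 13.4% and 14.7% in the narrowest class to 41.1% and 45.6% in the widest.

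Neither width limit coincided with a step in the share. Of the 50 control regions just below the lower limit (997 to 999 bp) 5 were split, as were 5 of the 50 just above it (from 1000 bp). At the upper limit 22 of 50 regions of 2952 to 2997 bp and 20 of 50 of 3001 to 3036 bp were split. The narrowest member, on chromosome 11, was 1000 bp wide with a gap of 190 bp, and the widest, on chromosome 1, was 2997 bp wide in 3 pieces.

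The libraries differed in estimated depth. Relative reads were computed from the background and scaling solved from the deposited fold and p. The narrowest listed region was taken as the fragment length, and default MACS2 scoring was assumed. On this estimate the siDLEU1 H3K4me3 library had 0.785 times the reads of the control and the siDLEU1 H3K27ac library 1.37 times. The control reads used in peak calling were 0.937 times. A summit held a median of 47 fragments in the control H3K4me3 list of 58582 regions and of 41 in the siDLEU1 list of 56943. Depth thus moved with the siRNA, and its part in the splitting was not tested. Of 8 squamous markers 7 had an H3K4me3 region at the TSS in both lists, and of 6 markers of other cell types 1 did.

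Split control regions were moderately strong and wide. Their median width was 1665 bp and that of regions met by 1 was 1385 bp. Fold enrichment was ranked within each list as a percentile, where 100 is the strongest region. The median percentile was 78.6 for split regions, with quartiles of 65.7 and 89.8, and 84.5 for the comparison. At the summit they held a median of 90 and 106 fragments. The split share was 28.4% in the weakest 10% of control regions of this width and 16.1% in the strongest.

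The number of pieces was usually 2. Of the 2689 members, 2442 were met by 2 siDLEU1 regions, 228 by 3 and 19 by 4. With the pieces of each member sorted by rank, the strongest had a median percentile of 73.9 in the siDLEU1 list and a median of 71 fragments at its summit, and the weakest a percentile of 30.2 and 32 fragments. The widest piece had a median width of 904 bp and the narrowest 360 bp. These are full widths, and in 1604 members (59.7%) a piece reached outside the control region. Together the pieces covered a median of 78.9% of the control region. The control summit lay inside a piece in 98.5% of members and inside the gap in 21 members (0.781%), at a median of 319 bp from the gap.

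The gap was short. Its median width was 143 bp (quartiles 100 and 214 bp, range 67 to 1650 bp), 52.5% of gaps were under 150 bp and 12.6% were over 300 bp. In the opposite direction the smallest gap, between control regions, was 60 bp. Whether both lists joined near peaks at the same distance is not known. Its middle lay at a median of 51.1% of the region's length, and in the central 20% of the region in 35.8% of members. When regions of the other list less than 200 bp apart were joined, 773 control regions (6.23%) and 695 siDLEU1 regions (6.23%) were still split. Among regions of −log10 q 10 or more in each list, the shares were 6.35% and 9.77%.

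Split regions were less often at promoters than the comparison. An annotated TSS lay inside 31.2% of them (838) and 47.0% of regions met by 1, a gene body without a TSS within 1 kb held 36.9% (993) and 23.6%, and intergenic sequence 24.2% (650) and 20.1%. The canonical TSS of a gene lay inside 555 split regions (20.6%) and 33.4% of the comparison, or 35.8% after matching for width. Seen from the place, 15.7% of control regions at a TSS were split, 29.6% in gene bodies and 24.9% between genes. For siDLEU1 regions the corresponding shares were 22.5%, 26.5% and 26.7%. The shares of the directions differed most at TSSs, with intervals of 14.8% to 16.7% for control regions and 21.3% to 23.6% for siDLEU1 regions. These intervals cover counting error only and do not measure differences between libraries. Promoters with TSSs on both strands were split in 13.9% of control regions and 27% of siDLEU1 regions.

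Where a split region held a canonical TSS, the gap lay upstream of it in 223 of 555 regions (40.2%), across it in 66 (11.9%, 9.46% to 14.9%) and downstream in 266 (47.9%). The gap made up 8.22% of the length of these regions. The middle of an upstream gap lay at a median of −130 bp from the TSS (quartiles −405 and −92.8 bp) and that of a downstream gap at a median of 873 bp after it (656 and 1197 bp). Of all gap middles 22% fell in the 100 bp before the TSS, 3.6% in the 100 bp after it and 0.901% in the next 100 bp. The control summit sat at a median of 205 bp after the TSS.

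**Figure D2:**
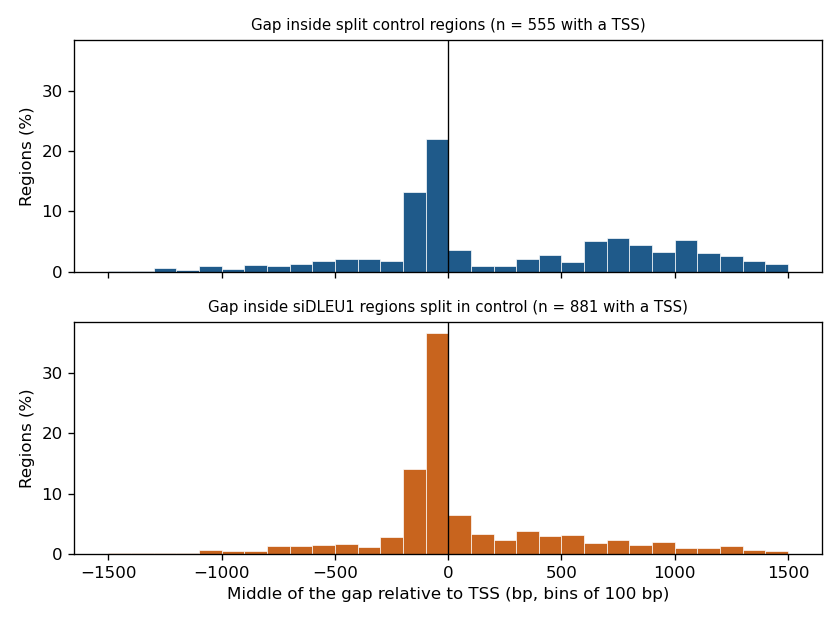
Position of the middle of the gap relative to the canonical TSS, in bins of 100 bp from −1500 to 1500 bp, as a percentage of regions with a TSS; the upper panel shows 555 split control regions and the lower panel 881 siDLEU1 regions split in the control list. Gaps in control regions peak in the 100 bp before the TSS (22%) with a second broad group from 600 to 1200 bp after it, and gaps in siDLEU1 regions concentrate before the TSS (36.5%).

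Gaps in the opposite direction lay closer to the TSS. Of the 881 siDLEU1 regions with a canonical TSS that were split in control cells, the gap held the TSS in 241 (27.4%, 24.5% to 30.4%), with 8.26% of the length in gaps. It lay upstream in 42.5%, at a median of −117 bp, and downstream in 30.2%, at a median of 588 bp after it. At the TSS itself 83.6% of split control regions and 96.0% of the comparison were covered in the siDLEU1 list, and 69.4% of siDLEU1 regions split in control were covered in the control list. With regions less than 200 bp apart joined, the gap held the TSS in 6 of 93 split control regions (6.45%) and in 58 of 124 siDLEU1 regions (46.8%), and for regions of −log10 q 10 or more in 18.1% and 31.1%. When a gap counted if it held any annotated TSS, of any transcript, the shares were 24.9% (209 of 838) of split control regions and 42.6% (476 of 1117) in the opposite direction.

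At 100 bp before the TSS, H3K4me3 covered 78.2% of split regions in control cells and 53.3% in siDLEU1 cells. The comparison regions had a dip at the same place in both lists, with 71.2% covered in control and 72.4% in siDLEU1 cells, and regions split in the opposite direction had 50.4% and 89.0%. At 200 bp after the TSS, 99.5% and 98.6% of split regions were covered.

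**Figure D3:**
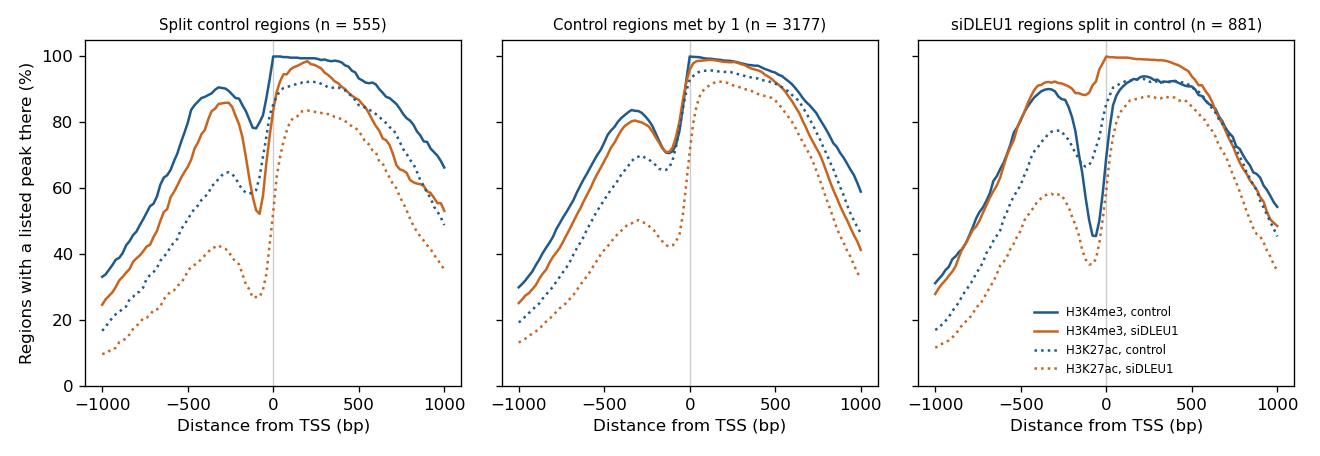
Percentage of regions with a listed peak at each distance from the canonical TSS (bp, in the direction of transcription), for H3K4me3 (solid) and H3K27ac (dotted) in control and siDLEU1 cells; the panels show 555 split control regions, 3177 control regions met by 1, and 881 siDLEU1 regions split in control. All panels dip near 100 bp before the TSS; siDLEU1 H3K4me3 is the lower line there in the left panel (53.3% against 78.2%) and control H3K4me3 in the right panel (50.4% against 89.0%).

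Among the split regions of highest control fold enrichment at protein-coding TSSs, both upstream and downstream gaps occurred. The PSMA3 region (chr14:58710477-58713293, 99.8th percentile) became a piece of 720 bp at the 77.1st percentile and a piece of 1642 bp at the 98.5th, with the gap from 215 to 97 bp before the TSS. S100A6, a calcium-binding protein, had a gap of 98 bp from 155 to 58 bp before the TSS, and its pieces ranked at 81.6 and 77.1 against 99.6 for the control region. MOB3B, a MOB kinase activator, was split in the same way, with a gap of 91 bp that ended 59 bp before the TSS. RFX3, a transcription factor of ciliated cells, was split from 36 to 135 bp after the TSS, and its pieces ranked at 54.4 and 91.7 against 99.9.

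In NEK8 the gap ran from 299 to 458 bp after the TSS, and the pieces ranked at 99.8 and 47.2 against 99.9. In BROX, a BRO1 domain protein of the nuclear envelope, it ran from 656 to 801 bp and the pieces ranked at 99.8 and 76.2 against 99.9. In WSB1, a substrate receptor of a ubiquitin ligase, it ran from 900 to 974 bp and the pieces ranked at 96.3 and 75.1 against 99.7. In each of these 3 the piece that held the TSS was the stronger.

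The 5 members with 3 pieces at a protein-coding TSS and the highest control fold enrichment had their widest gap downstream of the TSS. The MYO10 region of 2412 bp (99.8th percentile) was met by 3 siDLEU1 regions, of which the piece at the TSS ranked at 97.9 and the others at 2.12 and 9.80. The pieces of PRDX1, a peroxiredoxin, ranked at 28.2, 99.6 and 74.3. In PHLDA3, a p53 target that inhibits AKT signalling, the gap began 2355 bp after the TSS, and the pieces ranked at 99.6 at the TSS and at 41.1 and 11.5 farther on. SMG9, of nonsense-mediated decay, and SH3RF1, a scaffold protein of JNK signalling, also had 3 pieces with the strongest at the TSS. In these 5 genes a piece away from the TSS was the weakest.

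**Figure D4:**
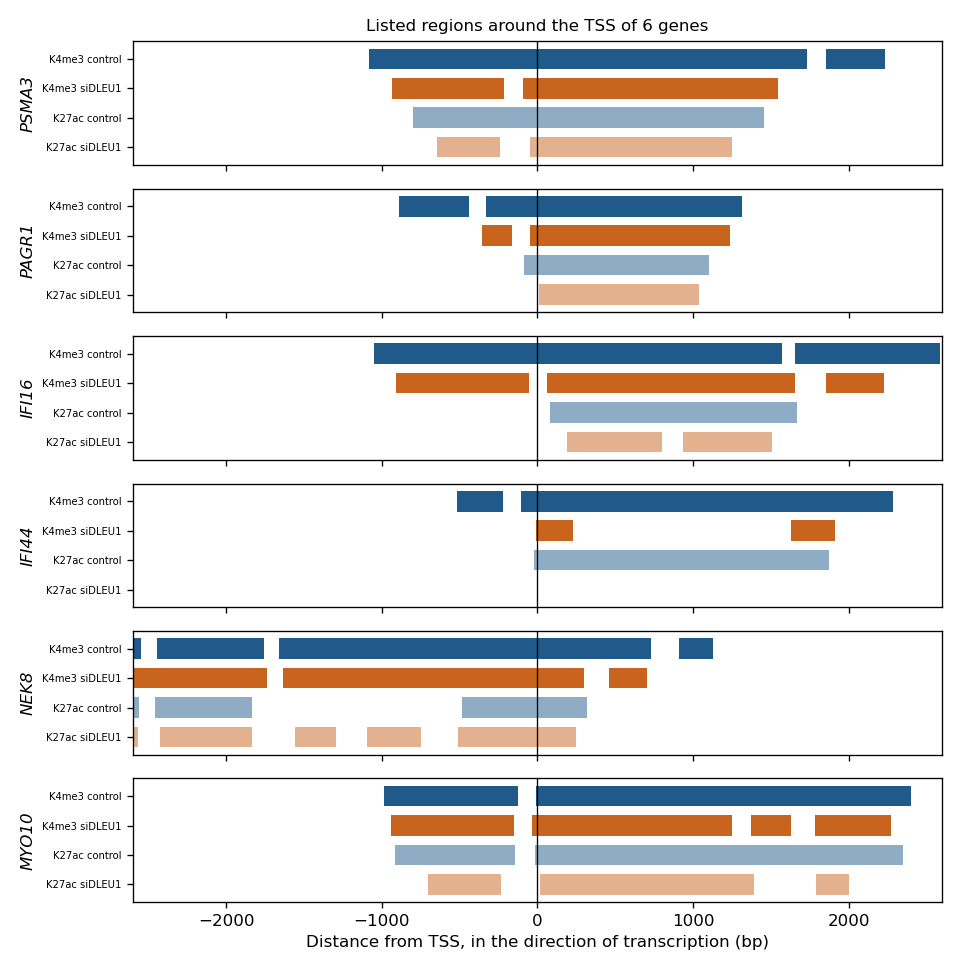
Listed regions of H3K4me3 and H3K27ac in control and siDLEU1 cells around the TSS (bp, in the direction of transcription) of PSMA3, PAGR1, IFI16, IFI44, NEK8 and MYO10; each bar is 1 listed region. PSMA3 and PAGR1 show the gap before the TSS, IFI16 across it, and IFI44, NEK8 and MYO10 after it, where the IFI44 gap of 1398 bp had H3K27ac in control cells and none in siDLEU1 cells.

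The widest gap at a protein-coding TSS was that of IFI44, an interferon-stimulated gene. Its control region (chr1:79115411-79117798) was 2388 bp wide and of modest rank (36.2nd percentile), and siDLEU1 cells had a piece of 238 bp at the TSS (40.2nd percentile) and a piece of 286 bp (34.6th). The control summit held 87 fragments and the summits of the pieces 28 and 26, in libraries of unlike depth. The gap of 1398 bp ran from 230 to 1627 bp after the TSS. Next came KLHDC8B, a kelch protein (737 bp), the m6A reader YTHDF2 (715 bp), the metallothionein MT1E (710 bp) and the lysosomal protease CTSD (546 bp), then SLC35F6 (537 bp), the muscle ubiquitin ligase TRIM55 (534 bp) and the adenylate kinase AK3 (531 bp). All 8 gaps lay downstream of the TSS. In YTHDF2 the piece at the TSS ranked at 96.8 and the distal piece of 288 bp at 18.

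In regions without a canonical TSS, the AP-1 motif was more common around the gap than at the middles of the pieces. Of 2134 split regions without a canonical TSS, 361 (16.9%, 15.4% to 18.6%) had TGAGTCA on either strand in the 150 bp centred on the gap. In windows of the same length at the middles of their pieces it was present in 125 of 4501 (2.78%, 2.34% to 3.30%), and in the middles of regions met by 1 without a canonical TSS in 330 of 6334 (5.21%). The same letters written backward, ACTGAGT, were in 2.81% of the gap windows and 2.02% of the piece windows. The share was 17.9% in gene bodies and 17.8% between genes, 20.4% for gaps of 150 to 300 bp and 9.80% for gaps over 300 bp. It was lower in regions that overlapped a control H3K27ac region (37 of 425, 8.71%) than in those that did not (324 of 1709, 19.0%). These groups also differed in the GC box GGGCGG, in 18.6% against 4.33% of gap windows. They were not matched for distance to annotated TSSs, so H3K27ac and nearness to a promoter cannot be told apart here. The middle of a comparison region is not a gap, so that value sets no like position. For the 1045 gaps under 150 bp the window reached into the pieces, and 16.3% of these windows had the motif. Some of the 2134 regions held or lay near an annotated TSS that was not canonical.

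The motif was also present around gaps of the opposite direction. Of 1806 siDLEU1 regions without a canonical TSS that were split in control cells, 222 (12.3%, 10.9% to 13.9%) had it in the gap window, against 3.89% of their piece windows. By distance, it lay in 10.6% and 11.2% of split control regions in the 100 bp on either side of the middle of the gap, and in 1.73% and 1.64% at 200 to 300 bp. The TEAD motif GGAATG was in 10.4% of gap windows of split regions without a canonical TSS and 8.22% of piece windows. Motif matches are descriptions of sequence and do not show binding.

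**Figure D5:**
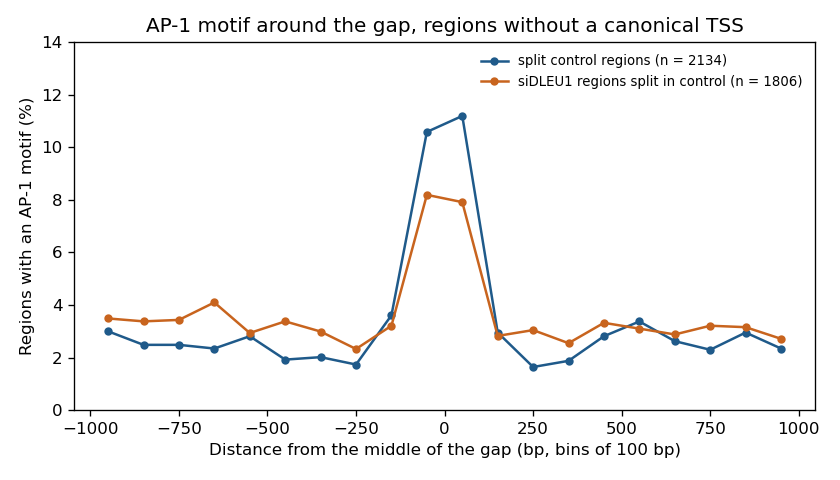
Percentage of regions without a canonical TSS that have the AP-1 motif in each bin of 100 bp around the middle of the gap, for 2134 split control regions and 1806 siDLEU1 regions split in control. Both lines peak in the 2 central bins, at 10.6% and 11.2% for split control regions and 8.19% and 7.92% for the opposite direction, and lie between 1.64% and 4.10% in all other bins.

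Other motifs were counted in promoter gaps. In 150 bp windows on the 223 upstream gaps the GC box GGGCGG was in 44.8%, the CCAAT box in 21.1% and the ETS motif CGGAAG in 14.8%. Windows 130 bp before the TSS in 3177 comparison regions gave 44.6%, 20.3% and 17.0%. The AP-1 motif was in 11 of 223 upstream gap windows (4.93%, 2.78% to 8.62%) and 47 of 3177 comparison windows (1.48%, 1.11% to 1.96%). Downstream gaps held the GC box more often than comparison windows 872 bp after the TSS, in 19.9% (15.6% to 25.1%) against 11.3% (10.3% to 12.5%). The comparison windows sat at a fixed distance, whereas the distance of the gaps varied. Its quartiles were −405 and −92.8 bp upstream, and 656 and 1197 bp downstream. Position and being a gap therefore cannot be told apart in these contrasts.

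Examples away from TSSs, taken from the members with the highest control fold enrichment there and chosen after their values were seen, had pieces of like and of unlike rank. A member in EIF4G3, a translation initiation factor (chr1:21349754-21351080), ranked at 99.8 and its pieces at 99.5 and 92.8. A member in CROCC, a protein of the ciliary rootlet, ranked at 99.7 and its pieces at 99.9 and 47.0. A member in CNTLN, a centrosomal protein, ranked at 99.6, with pieces at 98.8 and 6.77 on either side of a gap of 196 bp. A member in PKD1L1, of the polycystin family (chr7:47825353-47828136), ranked at 99.5, lay 6753 bp from the nearest TSS and had no H3K27ac region in either library. An intergenic member on chromosome 19 (chr19:21786644-21788210) had the highest rank of all members, and its pieces were the top region of the siDLEU1 list and a region at 75.9. The next intergenic members, both on chromosome 5, had pieces at 89.8 and 12.9, and a first and second piece at 40.7 and 91.0 of 3.

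H3K27ac, which the choice of members did not use, was less common on split regions. In control cells 35.1% of split regions and 56.2% of the comparison overlapped an H3K27ac region, and in siDLEU1 cells 30.8% and 52.6%. At TSSs 81.1% of split regions had H3K27ac in control cells, in gene bodies 6.04% and between genes 15.5%. In siDLEU1 cells these were 76.3%, 3.63% and 9.69%. Comparison regions in the same places had 91.1%, 10.2% and 22.9% in control cells and 89.3%, 6.54% and 16.2% in siDLEU1 cells. Of the 944 split regions with H3K27ac in control cells 87.3% also had it in siDLEU1 cells, against 93.4% of the comparison. In gene bodies most regions of either kind had H3K4me3 without a listed H3K27ac region.

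Members with 2 or more H3K27ac regions were more common in siDLEU1 cells than in control cells, as were such comparison regions. The counts do not show whether a control H3K27ac region was broken up or a separate one was listed. Of split regions with H3K27ac, 12.3% had 2 or more H3K27ac regions in control cells and 25.3% in siDLEU1 cells. The same shares were 4.36% and 13.5% for the comparison, and 23.1% and 41.6% for siDLEU1 regions split in control. Across the gap H3K27ac covered 15.9% of bases in control and 6.02% in siDLEU1 cells, a ratio of 0.378. Across the pieces it covered 27.4% and 20.7%, a ratio of 0.756. For siDLEU1 regions split in control these ratios were 0.606 in the gap and 0.839 in the pieces. Over the whole of the comparison regions the ratio was 0.806, and over the whole lists H3K27ac regions covered 17.3 Mb in control and 12.4 Mb in siDLEU1 cells.

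By position, H3K27ac covered 54.7% of the bases of upstream gaps in control and 10.6% in siDLEU1 cells, 70.9% and 18.8% of gaps that held the TSS, and 52.5% and 23.8% of downstream gaps. At 100 bp before the TSS 59.5% of split regions had H3K27ac in control cells and 27% in siDLEU1 cells. The comparison had 68.6% and 42.7%. In PSMA3 the H3K27ac region of 2257 bp covered the whole gap of 119 bp in control cells, and in siDLEU1 cells 2 regions covered none of it. In IFI44 an H3K27ac region of 1896 bp covered all 1398 bp of the gap in control cells, and siDLEU1 cells had no H3K27ac region there. In AK3 control H3K27ac covered all 531 bp of the gap and siDLEU1 H3K27ac 5 bp. RPS25, a ribosomal protein gene, kept H3K27ac across its whole gap of 88 bp in both.

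Base composition differed with the position of the gap. Split regions had a median GC content of 49.6% and the comparison 53.3%, and CpG observed over expected was 0.277 and 0.459. The gap was lower in GC than its own pieces by a median of 2.44 percentage points (difference −2.44, quartiles −8.66 and 3.15). Gaps that held the TSS were 8.86 points higher than their pieces and upstream gaps 2.32 points higher, whereas the difference was −8.26 points for downstream gaps. In siDLEU1 regions split in control the gap was 1.89 points higher across all of them, 11.8 points higher where it held the TSS, with a median GC of 75% there, and 5.16 points higher downstream. GC content therefore moved with the direction of the split, and its part in the result was not tested.

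Of all genes with the canonical TSS in a control region of this width, 636 of 4317 (14.7%) lay in a split region, and 1057 of 4469 (23.7%) in the opposite direction. Against this background, interferon-stimulated genes lay in split regions in 5 of 42 cases (11.9%), and in the opposite direction in 6 of 31 (19.4%). The 5 were IFI44, the guanylate-binding proteins GBP1 and GBP2, the DNA sensor IFI16 and the restriction factor TRIM5. Of the interferon genes shown in the study, a list the study chose on these samples, 1 of 9 was in a split region, MT2A, a metallothionein, and in the opposite direction 0 of 4. Of these 9 genes 6 lay in regions met by 1, and the rest in regions met by no siDLEU1 region. Regions met by 1 held 35 of the 42 interferon-stimulated genes and 3676 of all 4317 genes. The genes in neither kind of region were in regions met by none. No gene of the 13q14 list, DLEU1 included, was among the members (0 of 11), and 2 of 10 were split in the opposite direction.

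The interferon genes had gaps of every kind. In IFI16 (97.9th percentile in control cells) the gap of 115 bp ran from 56 bp before to 58 bp after the TSS between pieces at the 78.1st and 91.8th percentiles. In GBP2 the gap of 69 bp also held the TSS, between pieces at 57.2 and 8.89 against 90.6. GBP1 and TRIM5 had gaps before the TSS, from 234 to 165 bp and from 210 to 77 bp. In MT2A the gap of 112 bp lay past the end of the gene, 1335 to 1446 bp after the TSS, and the pieces ranked at 39.1 and 62.7 against 94.2.

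Housekeeping groups were split at varied rates. Cytosolic ribosomal protein genes were in split regions in 9 of 47 cases (19.1%), and in the opposite direction in 16 of 60, among the 9 RPL10A, RPS14, RPS25 and RPS3A, and mitochondrial ribosomal protein genes in 1 of 34 (2.94%), MRPS31, and in 5 of 39 in the opposite direction. Proteasome genes were split in 4 of 24 cases (16.7%), PSMA3, PSMB6, PSMD3 and PSMD11, and in 0 of 20 in the opposite direction. All 4 gaps lay before the TSS, the nearest edge 97, 46, 42 and 103 bp from it in that order. Splicing genes were split in 4 of 29 cases (13.8%), HNRNPA1, PRPF6, SNRPA1 and SF3B3, and in 10 of 29 in the opposite direction. The numbers of genes are small and no list was tested.

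Regulators and lineage genes followed. H3K4 methyltransferase and demethylase genes were split in 2 of 10 cases, and in 1 of 12 in the opposite direction. The 2 were DPY30, a core subunit of the SET1 and MLL complexes, with a gap from 99 to 17 bp before the TSS, and PAGR1, with a gap from 165 to 52 bp before it. In PAGR1 the piece of 194 bp before the gap ranked at 42.3 and the piece with the TSS at 96.4, against 95.2 in control cells. Genes of histone acetylation were split in 0 of 8 cases and genes of DNA replication and the cell cycle in 0 of 5, against 3 of 8 and 3 of 10 in the opposite direction. Squamous genes were split in 3 of 19 cases (15.8%), and in 1 of 13 in the opposite direction. The 3 were the desmosomal genes DSG3 and PKP2 and the keratin KRT6A. KRT6A ranked at 48.3 in control cells and its pieces at 84.0 and 61.4, each within its own list.

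The p53 targets DDB2 and PHLDA3 were split among 6 genes, and FOS and NFKB2 among 10 AP-1 and NF-kB genes. In the opposite direction 3 of 11 and 1 of 6 were split. FOS, a subunit of AP-1, had 3 pieces at 43.5, 45.6 and 93.9 against 76.9 in control cells, with the strongest at the TSS and the gap from 1170 to 803 bp before it. H3K27ac covered all 368 bp of the FOS gap in control cells and none of it in siDLEU1 cells. NFKB2, the precursor of p52, also had 3 pieces, at 31.0, 36.3 and 52.6 against 77.8.

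Split regions were spread over the genome. The split share per chromosome ran from 18% of 139 control regions on chromosome 21 to 25.6% of 727 on chromosome 12. Where a split region was followed by another control region of this width within 5 kb, that neighbour was split in 161 of 572 cases (28.1%), and in 404 of 1854 cases (21.8%) where the first was met by 1.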

How the data were processed

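H3K4me3 and H3K27ac ChIP-seq of HSC3 cells gave 4 peak lists, 1 per siRNA and mark. Reads from an Ion Proton instrument were aligned by the authors to hg19 (bowtie2), and MACS2 called peaks for each library. Versions, settings and the control library are not given in the sources used here, and both input libraries are left out. Each deposited list gives the peak's position, its fold enrichment over local background (a ratio), the −log10 of p and q, the distance in bp to the summit and a display score that was not used. Fold enrichment was ranked within a list, and only these ranks are set side by side between lists, which differ in length and depth. The members and gene lists were chosen with earlier results of these data known.

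An overlap of 1 bp or more counted. Fragments at each summit were solved from the deposited fold and −log10 p as whole numbers, within 0.02 of a fragment, for 100% of peaks. The relative depth of the libraries was estimated from the background and scaling of this solution, with the narrowest region as fragment length. TSSs came from 24131 GENCODE genes (release lifted to GRCh37) with a curated RefSeq transcript, 24016 of them with a canonical TSS, and a region's TSS was the canonical one nearest its middle. Counts below are numbers of regions, and intervals are 95% Wilson intervals for counting error only. Scripts were tested on simulated data. Python 3, numpy, pandas, scipy and pysam were used. Named genes were the 8 regions with the widest gap, the 5 with most pieces and the 8 of highest fold at protein-coding TSSs, the study's interferon genes, and up to 4 genes of each of 13 lists; the AP-1 motif, TEAD motif and examples away from TSSs were added after values were seen. Alternatives were a stricter q, joined pieces, a stricter overlap, equal list lengths, other widths, and other sets of TSSs.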

Additional observations from a re-analysis of the deposited data

How the results depend on the processing

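No paired analysis was possible because every siRNA and mark had a single library, and for the same reason no library could be left out. The split shares depended most on how a split was counted. For H3K4me3 regions of −log10 q 10 or more, 6.35% of control and 9.77% of siDLEU1 regions were split, and the gap held the TSS in 18.1% and 31.1%. H3K27ac touched 27.3% of these gaps in control and 8.25% in siDLEU1 cells, and 24.7% of gap windows in regions without a canonical TSS held the AP-1 motif. The corresponding values on all regions were 21.7%, 24.1%, 11.9%, 27.4%, 23.4%, 10.5% and 16.9%. With pieces less than 200 bp apart joined the split shares were 6.23% and 6.23%, the gap held the TSS in 6.45% and 46.8%, H3K27ac touched 16.2% and 9.18% of gaps, and the AP-1 share in the opposite direction was 10.7%. With 50% of a piece required inside the region the split shares were 19.0% and 20.7%. At widths from 1500 bp they were 29.5% and 32.9%, the gap held the TSS in 9.25% and 22%, and H3K27ac in siDLEU1 cells touched 9.20% of gaps. Width classes weighted equally gave split shares of 28.8% and 31.8%. With the annotated TSS nearest the region's middle in place of the canonical one, the gap held it in 19.3% in the opposite direction, and 16.5% of all genes lay in split regions. For H3K27ac regions of −log10 q 10 or more 8.52% of gaps were touched in siDLEU1 cells. The causes of these shifts were not tested. Of the alternatives run, 26 moved a value beyond its counting interval and 54 did not, many of the latter on gene lists so small that their intervals are wide. The alternatives for the AP-1 motif and for the opposite direction of the TSS share were chosen after seeing the data. The precision is limited by the single library of each kind and by the lower estimated H3K4me3 depth in siDLEU1 cells.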

Other observations

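Across all genes, a canonical TSS lay in a gap between H3K4me3 regions more often in the control list than in the siDLEU1 list. Of 24016 canonical TSSs, 30.2% lay inside a control H3K4me3 region and 34.3% inside a siDLEU1 region. A further 13.1% lay in a gap of less than 1 kb between neighbouring control regions, and 9.18% in such a gap between siDLEU1 regions. Of TSSs inside a region or such a gap, 30.3% (29.4% to 31.2%) were in the gap in control cells and 21.1% (20.3% to 21.9%) in siDLEU1 cells.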
